A study of Mus musculus with 36 samples.

Results

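Brown adipose tissue (BAT) of 12 mice was examined for 41 skeletal muscle genes of the filaments, the Z-disc, calcium handling and energy supply. Their levels were set against those in white adipose tissue (WAT) and liver of the same animals. The genes were given as a list, chosen with earlier results of these data known. A probe set of the array was taken as a member when its platform gene symbol was exactly one of the 41 names. Of these genes 40 were measured, by 69 of the 45037 probe sets tested; Xirp2 had no such probe set. By fibre type, 14 measured genes encode isoforms of fast fibres, 8 encode isoforms of slow fibres and 18 serve both. Where a gene had several probe sets, as 14 did, the one with the highest mean over the 3 tissues stands for it.

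Male ddY mice, an outbred stock, were bought at 5 weeks of age and acclimated for 1 week. CAAM mice received an amino acid mixture modelled on casein (1.8%, 37.5 µL/g body weight) by feeding tube once a day for 5 days, and water mice received water in the same way. Both groups ate freely until food was removed before the last dose, and tissue was taken 4 h after that dose. There were 5 CAAM mice (numbers 2, 4, 5, 6 and 7) and 7 water mice (numbers 1 to 7), each with 1 Affymetrix mouse expression array of BAT, WAT and liver, 36 arrays in all. The study had left out 2 further CAAM mice for liver abnormalities. Each animal gave 1 sample of each whole tissue, so fewer cells of a type and less RNA per cell cannot be told apart.

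Skeletal muscle contracts when calcium released from the sarcoplasmic reticulum binds troponin C and lets the myosin of the thick filament pull on the actin of the thin filament. Fast and slow fibres build this machine from different gene copies, so that each has its own myosin heavy and light chains, troponins and calcium pump. Brown adipocytes and skeletal muscle fibres descend from related mesodermal precursors, and the interscapular brown fat pad lies against muscles of the back.

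Values are distribution free weighted (DFW) scores. Their level resembles a log2 intensity, but the method rescales how far arrays scored together depart from each other, by a weight particular to the probe set. Differences are therefore given in score units, never as folds. The median SD between the 12 BAT arrays was 7.38e-06 over all probe sets, and 58 probe sets (0.129%) had an SD over 0.1. Tissue markers followed the labels, with Ucp1, the uncoupling protein of brown fat, at 14.2 in BAT, 6.44 in WAT and 6.27 in liver. In BAT the arrays of CAAM mouse 2 and water mice 1, 3 and 7 stood apart from the other 8 in the muscle genes, and results are therefore given with and without these 4 mice.

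The muscle genes were among the most variable transcripts of brown fat. Because the list was chosen with earlier results of these data known, this describes the list and is no independent support. Acta1 had the largest SD of all probe sets, and 16 of the 20 largest SDs belonged to members. The remaining 4, named after their values were seen, were 2 probe sets of Sdhd and 1 each of Tmem45b and Gsn, and in none of them were these 4 arrays the highest. In BAT 56 of the 69 member probe sets lay in the top 5% of SD, which by construction holds 5% of all probe sets, against 5 of 69 in WAT and 0 of 69 in liver. The median SD of the 69 probe sets was 0.0909 in BAT, against 7.36e-06 in WAT and 6.05e-06 in liver. Whether the tissues share these weights is not stated, so these SDs describe the deposited scores and are no ratio of biological spread.

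**Figure D1:**
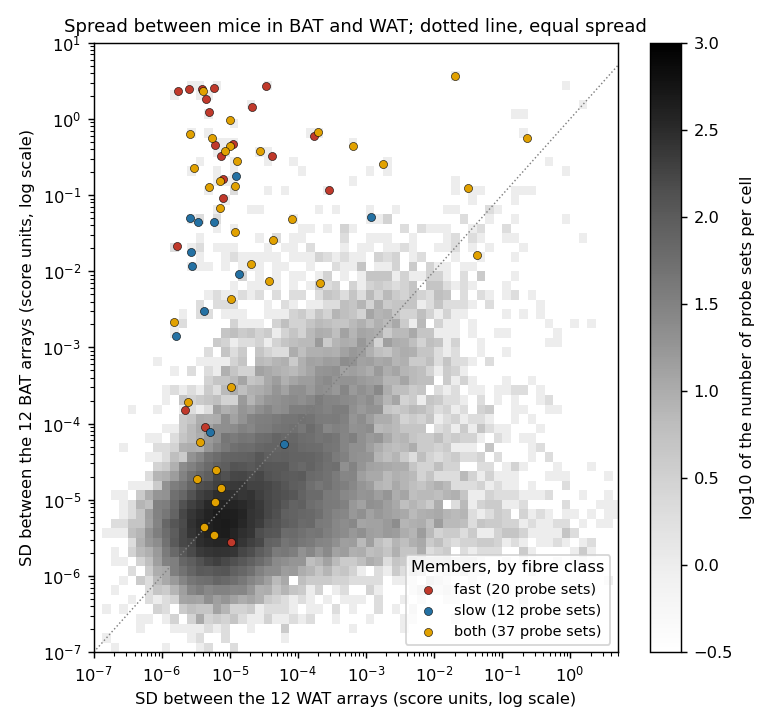
SD of the scores between 12 mice in BAT (vertical axis) and in WAT (horizontal axis), both in score units on log scales; grey cells count all probe sets and points are the 69 probe sets of the members by fibre class. Most points lie far above the dotted line of equal spread, with Acta1 at an SD of 3.68 in BAT.

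The same mice were high in nearly every gene. The 4 high arrays were picked by their scores of Acta1, which is itself a member. In 48 of the 69 member probe sets the 4 highest of the 12 BAT arrays were those of CAAM mouse 2 and water mice 1, 3 and 7, which was so in 0.568% of all probe sets (256, the 48 included). By gene this held for 31 of 40 members, namely 14 of 14 fast, 5 of 8 slow and 12 of 18 shared genes. Water mouse 1 had the highest array in 38 of 40 members, against 7.94% of all probe sets. The exceptions were Casq2, highest in CAAM mouse 2, and Mb, highest in water mouse 3. Scaled between the lowest (0) and the highest (1) array of each gene, the median position over the 40 members was 0.80 for CAAM mouse 2, 1 for water mouse 1, 0.66 for water mouse 3 and 0.29 for water mouse 7, and 0.0065 to 0.051 for the other 4 CAAM mice and 0.061 to 0.099 for the other 4 water mice.

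**Figure D2:**
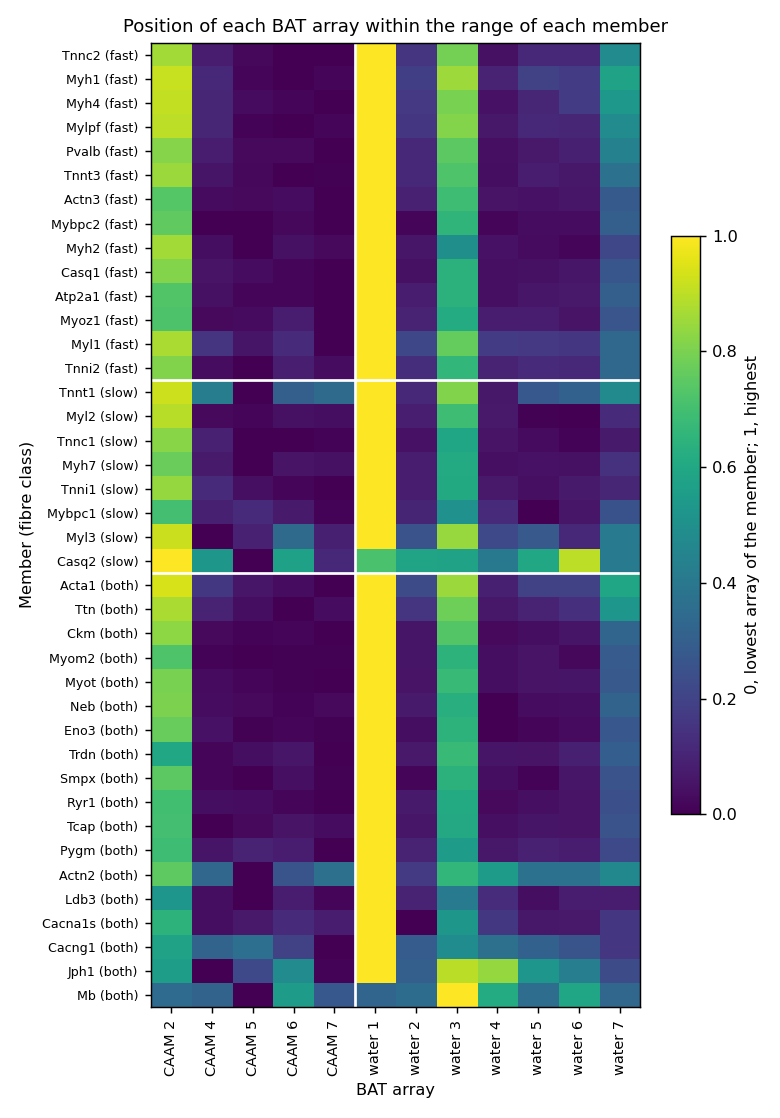
Position of each BAT array (columns, CAAM mice left of water mice) between the lowest (0) and highest (1) score of each of 40 members (rows), by fibre class and falling SD. Water mouse 1 is highest in 38 of 40 rows, and the columns of CAAM mouse 2 and water mice 1, 3 and 7 stand out in 31 of 40.

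In the thin filament, Acta1 encodes the actin of skeletal muscle. It scored 15.83, 8.21, 7.21, 6.93 and 6.62 in CAAM mice 2, 4, 5, 6 and 7, against 16.44, 8.90, 14.95, 7.47, 8.54, 8.54 and 12.39 in water mice 1 to 7. The lowest of the 4 high arrays lay 3.49 above the highest of the other 8, whose own range was 2.28. Tnnc2, the calcium sensor of fast fibres, scored 12.68, 7.01, 6.62, 6.47 and 6.47 in CAAM mice 2, 4, 5, 6 and 7, against 13.67, 7.56, 12.17, 6.80, 7.29, 7.31 and 9.94 in water mice 1 to 7. Tnnt3, which ties the fast troponin complex to tropomyosin, scored 9.28, 6.66, 6.54, 6.47 and 6.49 in CAAM mice 2, 4, 5, 6 and 7, against 9.78, 6.83, 8.87, 6.58, 6.72, 6.68 and 7.71 in water mice 1 to 7. For both genes the 4 high arrays did not overlap the other 8. Tnni2, the inhibitory subunit of fast fibres, scored 7.76, 7.55, 7.54, 7.56 and 7.55 in CAAM mice 2, 4, 5, 6 and 7, against 7.81, 7.58, 7.72, 7.57, 7.57, 7.57 and 7.63 in water mice 1 to 7 by its representative probe set. A second probe set of Tnni2, shown because the 2 differ in range, scored 10.54 in CAAM mouse 2 and 6.40 to 6.74 in the other 4 CAAM mice, against 11.31, 10.09 and 8.48 in water mice 1, 3 and 7 and 6.52 to 6.97 in the other 4 water mice. Both had the same 4 highest arrays. Neb, the giant ruler of thin filament length, scored 6.86 in CAAM mouse 2 and 5.88 to 5.91 in the other 4 CAAM mice, against 7.10, 6.64 and 6.26 in water mice 1, 3 and 7 and 5.87 to 5.96 in the other 4 water mice.

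The slow troponins moved over a far narrower range of scores. Tnnc1, the troponin C of slow and heart muscle, scored 6.371, 6.281, 6.270, 6.270 and 6.271 in CAAM mice 2, 4, 5, 6 and 7, against 6.393, 6.276, 6.342, 6.277, 6.274, 6.271 and 6.279 in water mice 1 to 7. CAAM mouse 4 was above water mouse 7 here, so that it shared only 3 of these 4 arrays. Tnni1, the slow inhibitory subunit, scored 6.627, 6.608, 6.606, 6.605 and 6.605 in CAAM mice 2, 4, 5, 6 and 7, against 6.631, 6.607, 6.621, 6.606, 6.606, 6.607 and 6.607 in water mice 1 to 7. CAAM mouse 4 was again above water mouse 7. Tnnt1, the slow tropomyosin-binding subunit, scored 6.683, 6.604, 6.539, 6.586 and 6.593 in CAAM mice 2, 4, 5, 6 and 7, against 6.695, 6.556, 6.665, 6.549, 6.582, 6.587 and 6.613 in water mice 1 to 7. In Tnnt1 the 4 high arrays did not overlap the other 8, but water mouse 7 was only 0.00847 above CAAM mouse 4. The SD over 12 arrays was 2.7 in Tnnc2 and 0.0441 in Tnnc1. It was 1.22 in Tnnt3 and 0.0513 in Tnnt1, and 0.0909 in Tnni2 and 0.00929 in Tnni1. The second probe set of Tnni2 had an SD of 1.83. Since each probe set has its own weight, these SDs do not rank fast against slow genes in biological spread.

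Promoters are shown for 1 shared, 1 fast and 1 slow gene of these filaments, because Acta1 and Myh4 shared their 4 highest arrays and Tnnc1 only 3 of them. Each is the 250 bases before the annotated start, 5′ to 3′, from RefSeq (GRCm38.p6), with matches to 5 motifs on either strand in capitals. The motifs are TATAAA, the E box CANNTG of myogenic bHLH factors, the MCAT element CATTCC of TEAD factors, and the MEF2 and CArG boxes, the sites of MEF2 and of serum response factor.
Acta1 (chr8:123894776-123895025, - strand): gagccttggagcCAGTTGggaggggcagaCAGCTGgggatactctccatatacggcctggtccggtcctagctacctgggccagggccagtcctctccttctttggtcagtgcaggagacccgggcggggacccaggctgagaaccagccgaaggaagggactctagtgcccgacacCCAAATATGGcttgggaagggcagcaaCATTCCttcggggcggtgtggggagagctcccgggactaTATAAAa
Myh4 (chr11:67237562-67237811, + strand): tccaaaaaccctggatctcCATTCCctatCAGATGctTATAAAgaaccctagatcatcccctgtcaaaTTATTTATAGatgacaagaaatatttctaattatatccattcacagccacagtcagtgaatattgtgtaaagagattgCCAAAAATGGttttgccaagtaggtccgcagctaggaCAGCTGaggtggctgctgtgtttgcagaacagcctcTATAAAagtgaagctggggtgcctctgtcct
Tnnc1 (chr14:31208062-31208311, + strand): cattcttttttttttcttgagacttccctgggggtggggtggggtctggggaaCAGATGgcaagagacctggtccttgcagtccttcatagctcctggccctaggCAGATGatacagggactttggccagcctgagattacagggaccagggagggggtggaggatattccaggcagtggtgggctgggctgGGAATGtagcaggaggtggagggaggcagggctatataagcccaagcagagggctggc

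The Acta1 window held 2 E boxes, 1 MCAT element, 1 CArG box and 1 TATAAA. That of Myh4 held all 5 motifs, including a TATAAA match on the opposite strand that lies inside the MEF2 box. In Tnnc1 there were 2 E boxes and 1 MCAT element. Windows were at hand for 30 of the 41 members, 37 windows in all, since 6 genes had several starts. An E box was found in 30 of these 37 windows, against 66.2% of all 32851 windows, and TATAAA in 6, against 12.4%. MCAT was found in 10 of 37, against 12.6%, the MEF2 box in 6 of 37, against 2.92%, and the CArG box in 5 of 37, against 1.47%. By fibre type the MEF2 box was found in 3 of 11 fast and 1 of 11 slow windows, and MCAT in 4 of 11 fast and 3 of 11 slow windows. These matches describe the letters of the windows, and binding was not measured.

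In the thick filament, the myosin heavy chains of fast fibres had the same 4 highest arrays as Acta1, in the same order. Myh4, the motor of the fastest (type IIb) fibres, scored 12.24, 7.07, 6.56, 6.46 and 6.38 in CAAM mice 2, 4, 5, 6 and 7, against 12.82, 7.45, 11.54, 6.69, 7.07, 7.52 and 9.81 in water mice 1 to 7. Myh1, that of type IIx fibres, scored 12.04, 6.67, 6.01, 5.92 and 6.05 in CAAM mice 2, 4, 5, 6 and 7, against 12.60, 7.17, 11.63, 6.60, 7.24, 7.07 and 9.77 in water mice 1 to 7. For both, the 4 high arrays lay clear of the other 8. Myh2, the motor of type IIa fibres, scored 7.56, 6.48, 6.44, 6.50 and 6.47 in CAAM mice 2, 4, 5, 6 and 7, against 7.74, 6.51, 7.08, 6.50, 6.48, 6.45 and 6.71 in water mice 1 to 7. The motor of slow fibres, Myh7, scored 7.0206, 6.9312, 6.9221, 6.9288 and 6.9277 in CAAM mice 2, 4, 5, 6 and 7, against 7.0495, 6.9317, 6.9999, 6.9271, 6.9282, 6.9278 and 6.9401 in water mice 1 to 7. Myh7 thus had the same 4 highest arrays as the fast chains within a range of 0.127 score units, against 6.44 in Myh4. These ranges carry the weight of each probe set and do not compare amounts. Heavy chain genes are close in sequence, and hybridization across them was not measured.

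Among light chains, Mylpf, the regulatory chain of fast fibres, scored 12.35, 7.47, 6.86, 6.80 and 6.88 in CAAM mice 2, 4, 5, 6 and 7, against 12.96, 7.77, 11.82, 7.20, 7.52, 7.46 and 9.78 in water mice 1 to 7. Myl1, the alkali light chain of fast fibres, scored 9.88, 9.63, 9.60, 9.62 and 9.58 in CAAM mice 2, 4, 5, 6 and 7, against 9.92, 9.65, 9.84, 9.64, 9.64, 9.63 and 9.70 in water mice 1 to 7. Both had the same 4 highest arrays, without overlap. Myl2, the slow and cardiac regulatory chain, scored 6.619, 6.502, 6.501, 6.505 and 6.504 in CAAM mice 2, 4, 5, 6 and 7, against 6.633, 6.510, 6.592, 6.508, 6.500, 6.499 and 6.515 in water mice 1 to 7. Myl3, the slow alkali chain, scored 7.3545, 7.3543, 7.3544, 7.3544 and 7.3544 in CAAM mice 2, 4, 5, 6 and 7, against 7.3546, 7.3544, 7.3545, 7.3544, 7.3544, 7.3544 and 7.3544 in water mice 1 to 7. Even in that narrow span the 4 highest arrays were those of CAAM mouse 2 and water mice 1, 3 and 7.

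The structural proteins of the thick filament behaved alike. Ttn, the titin spring, scored 11.54 in CAAM mouse 2 and 6.10 to 6.73 in the other 4 CAAM mice, against 12.32, 10.94 and 9.37 in water mice 1, 3 and 7 and 6.49 to 7.06 in the other 4 water mice. Myom2, which crosslinks the M band, scored 7.46 in CAAM mouse 2 and 6.29 to 6.31 in the other 4 CAAM mice, against 7.90, 7.33 and 6.76 in water mice 1, 3 and 7 and 6.33 to 6.38 in the other 4 water mice. Mybpc2, the fast myosin-binding protein C, scored 7.16 in CAAM mouse 2 and 6.19 to 6.22 in the other 4 CAAM mice, against 7.47, 7.03 and 6.58 in water mice 1, 3 and 7 and 6.21 to 6.23 in the other 4 water mice. The slow form Mybpc1 ranged by 0.00946 score units, with water mouse 5 lowest at 6.266 and water mouse 1 highest at 6.275, while a second probe set of Mybpc1, named after its values were seen, scored 6.94 in CAAM mouse 2 and 6.56 to 6.57 in the other 4 CAAM mice, against 7.07, 6.87 and 6.68 in water mice 1, 3 and 7 and 6.57 to 6.58 in the other 4 water mice. All of these had the same 4 highest arrays.

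At the Z-disc, where thin filaments are anchored, Actn3, the actinin of fast fibres, scored 7.61 in CAAM mouse 2 and 6.35 to 6.40 in the other 4 CAAM mice, against 8.06, 7.53 and 6.84 in water mice 1, 3 and 7 and 6.43 to 6.51 in the other 4 water mice. Myot, which binds actinin and actin, scored 7.03 in CAAM mouse 2 and 6.04 to 6.08 in the other 4 CAAM mice, against 7.27, 6.87 and 6.38 in water mice 1, 3 and 7 and 6.09 to 6.11 in the other 4 water mice. Myoz1, a calcineurin-binding protein of fast fibres, scored 7.13 in CAAM mouse 2 and 6.79 to 6.82 in the other 4 CAAM mice, against 7.27, 7.08 and 6.91 in water mice 1, 3 and 7 and 6.81 to 6.84 in the other 4 water mice. These 3 had the same 4 highest arrays. Tcap, the cap of titin, scored 7.13 in CAAM mouse 2 and 6.85 to 6.87 in the other 4 CAAM mice, against 7.25, 7.09 and 6.95 in water mice 1, 3 and 7 and 6.87 to 6.88 in the other 4 water mice. Smpx, a small protein of the muscle membrane skeleton, scored 6.37 in CAAM mouse 2 and 5.83 to 5.86 in the other 4 CAAM mice, against 6.55, 6.30 and 6.02 in water mice 1, 3 and 7 and 5.84 to 5.88 in the other 4 water mice. Both again put the 4 arrays highest. Actn2, the actinin of all fibres, scored 6.619 in CAAM mouse 2 and 6.547 to 6.582 in the other 4 CAAM mice, against 6.643, 6.611 and 6.592 in water mice 1, 3 and 7 and 6.563 to 6.599 in the other 4 water mice, and water mouse 4 was above water mouse 7. Ldb3, a PDZ-LIM scaffold, scored 6.611 in CAAM mouse 2 and 6.598 to 6.600 in the other 4 CAAM mice, against 6.623, 6.608 and 6.600 in water mice 1, 3 and 7 and 6.599 to 6.601 in the other 4 water mice by its representative, in which water mouse 7 was not set apart from the other arrays. Its other 2 probe sets did have the 4 arrays highest.

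Of the calcium handling genes, Pvalb, the calcium buffer of fast fibres, scored 9.83, 6.92, 6.73, 6.72 and 6.62 in CAAM mice 2, 4, 5, 6 and 7, against 10.54, 7.07, 9.55, 6.78, 6.89, 6.97 and 8.34 in water mice 1 to 7. Atp2a1, the calcium pump SERCA1 of fast fibres, scored 7.45, 6.81, 6.78, 6.78 and 6.77 in CAAM mice 2, 4, 5, 6 and 7, against 7.71, 6.84, 7.37, 6.81, 6.83, 6.83 and 7.05 in water mice 1 to 7. Casq1, the calcium store protein of fast fibres, scored 7.26 in CAAM mouse 2 and 6.52 to 6.57 in the other 4 CAAM mice, against 7.43, 7.11 and 6.77 in water mice 1, 3 and 7 and 6.56 to 6.58 in the other 4 water mice. In all 3 the 4 high arrays did not overlap the other 8. Ryr1, the release channel, scored 6.61 in CAAM mouse 2 and 6.29 to 6.31 in the other 4 CAAM mice, against 6.75, 6.57 and 6.40 in water mice 1, 3 and 7 and 6.30 to 6.32 in the other 4 water mice. Trdn, which couples that channel to calsequestrin, scored 6.91 in CAAM mouse 2 and 6.41 to 6.46 in the other 4 CAAM mice, against 7.25, 6.98 and 6.66 in water mice 1, 3 and 7 and 6.45 to 6.48 in the other 4 water mice. Both had the same 4 arrays highest, with water mouse 3 above CAAM mouse 2 in Trdn. The isoform of calsequestrin in slow fibres, Casq2, stayed at 6.84 in every array, Cacng1, a subunit of the voltage sensor channel, at 6.97 and Jph1, a junctional membrane protein, at 7.12. Cacna1s, the voltage sensor, ranged over 0.00701 score units with water mouse 1 highest.

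Of the energy genes, Ckm, the creatine kinase of muscle, scored 9.06, 7.02, 6.98, 6.98 and 6.95 in CAAM mice 2, 4, 5, 6 and 7, against 9.50, 7.10, 8.82, 7.02, 7.05, 7.10 and 7.79 in water mice 1 to 7. Eno3, the muscle enolase, scored 8.66 in CAAM mouse 2 and 7.86 to 7.90 in the other 4 CAAM mice, against 8.91, 8.54 and 8.14 in water mice 1, 3 and 7 and 7.85 to 7.89 in the other 4 water mice. Pygm, the glycogen phosphorylase of muscle, scored 6.46 in CAAM mouse 2 and 6.31 to 6.33 in the other 4 CAAM mice, against 6.53, 6.43 and 6.36 in water mice 1, 3 and 7 and 6.33 in the other 4 water mice. All 3 had the same 4 highest arrays. The probe sets of Mb, the oxygen store myoglobin, disagreed. The representative stood at 6.96 in all 12 arrays, while the second, shown because it differs, scored 8.39 in CAAM mouse 2 and 6.95 to 7.09 in the other 4 CAAM mice, against 8.85, 8.20 and 7.37 in water mice 1, 3 and 7 and 6.96 to 7.06 in the other 4 water mice. That second probe set again had the 4 arrays highest.

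**Figure D3:**
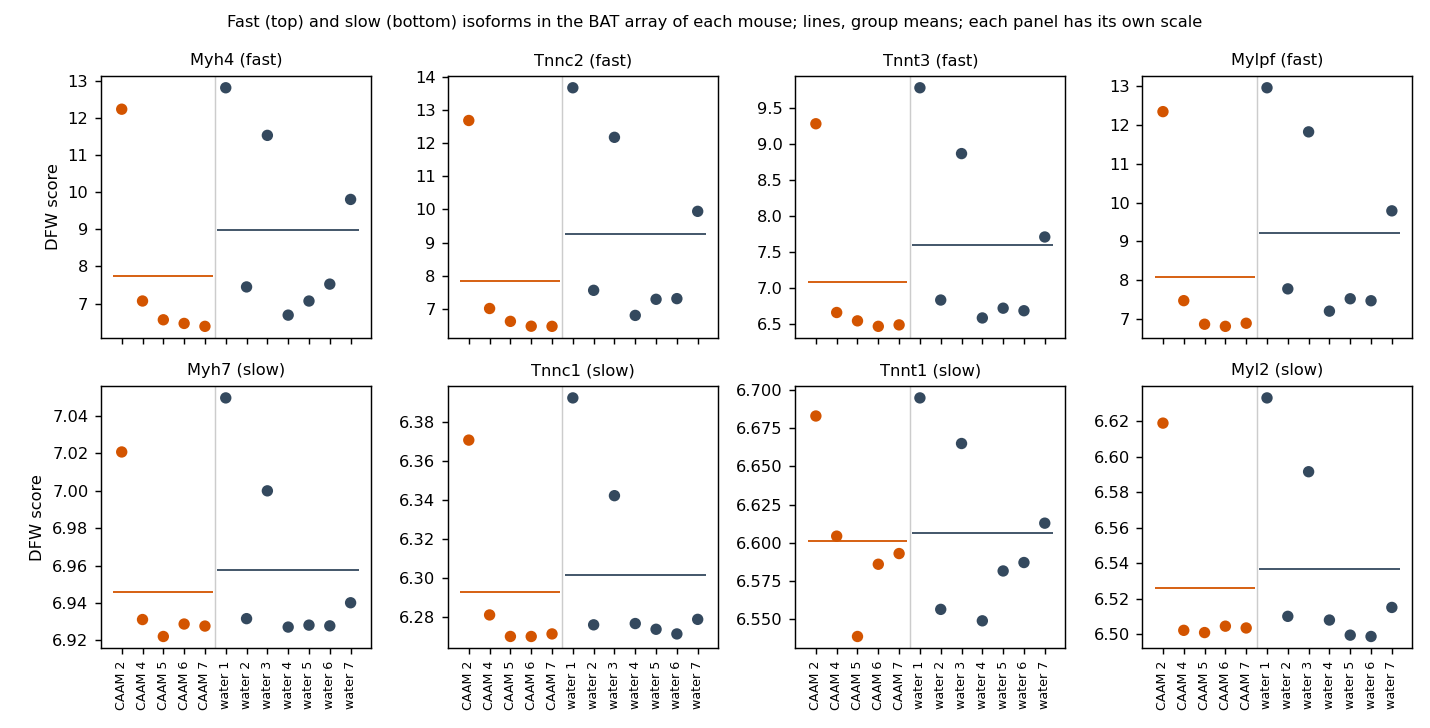
DFW scores of 4 fast isoforms (upper row) and their slow counterparts (lower row) in the BAT array of each of 5 CAAM mice and 7 water mice; lines are group means, and each panel has its own scale. CAAM mouse 2 and water mice 1, 3 and 7 are the highest arrays in every panel except Tnnc1, where CAAM mouse 4 is above water mouse 7.

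Fast and slow isoforms were then compared in the arrays below the gap. Because 4 arrays stood apart, no correlation over all 12 was computed. Within the other 8 arrays, 8 pairs of genes were tested by exact permutation (two-sided, adjusted over 8 pairs). Atp2a1 and Acta1 varied together, with Pearson's r = 0.97 (adjusted exact p = 0.000397) and Spearman's rho = 0.98 (adjusted exact p = 0.00317). Without the 2 arrays farthest from the median of Atp2a1, r was 0.95 (exact p = 0.00556). None of the 5 pairs of fast and slow isoforms passed. Their r was 0.49 for Myh4 and Myh7, 0.41 for Tnnc2 and Tnnc1, 0.13 for Tnni2 and Tnni1, 0.13 for Mylpf and Myl2 and -0.08 for Tnnt3 and Tnnt1, with adjusted exact p of 0.57 to 0.846 and rho of -0.095 to 0.45. Without the 2 arrays farthest from the median of the fast gene, r ranged over these pairs from 0.096 in Mylpf and Myl2 to 0.82 in Tnni2 and Tnni1 (exact p = 0.0292, unadjusted). Acta1 gave r = 0.24 with Ucp1 (rho = 0.37) and -0.62 with Acta1 of the same animals' WAT (rho = -0.48), with adjusted exact p of 0.846 and 0.444. Each treatment group holds only 4 of these 8 arrays, too few for a value of its own. Every r was therefore taken over both groups together, and the permutations did not keep the groups apart. Among these arrays Acta1 had a mean of 7.24 with CAAM and 8.36 with water. For Atp2a1 the means were 6.787 and 6.827, in the same order. The r of this pair thus mixes the group difference with variation between mice within a group, and these parts were not separated.

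BAT was next set against WAT and liver, which asks whether muscle transcripts are particular to brown fat among these tissues. In 9 of 14 fast genes all 12 BAT arrays lay above all 12 WAT arrays, beside 36.3% of all probe sets. Against liver this held for 8 of 14, beside 47.4%. Myh4 scored 6.38 to 12.82 in BAT, against 6.03 in WAT and 6.10 in liver. Tnnc2 scored 6.47 to 13.67 in BAT, against 6.30 in WAT and 6.45 in liver. Even the lowest BAT array lay above every WAT and liver array for both. Myl1 scored 9.58 to 9.92 in BAT, against 8.55 in WAT and 6.34 in liver. Acta1 scored 6.62 to 16.44 in BAT, against 7.09 to 7.15 in WAT and 6.59 in liver, and 10 of 12 BAT arrays exceeded all WAT arrays. Pvalb overlapped WAT and liver, with 6.62 to 10.54 in BAT, against 7.06 in WAT and 6.76 in liver. Other fast genes were below every WAT array in most BAT arrays, namely Casq1 and Myoz1 in 9 of 12 and Actn3 in 8. Atp2a1 and Mybpc2 exceeded all WAT and liver arrays in only 4 of 12.

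Slow isoforms split. Myh7 scored 6.92 to 7.05 in BAT, against 6.76 in WAT and 6.77 in liver, and Myl3 scored 7.35 in BAT, against 6.97 in WAT and 7.08 in liver. Both were above the other tissues in all 12 BAT arrays. Tnnc1 scored 6.27 to 6.39 in BAT, against 7.12 in WAT and 6.94 in liver, and Tnnt1 scored 6.539 to 6.695 in BAT, against 6.757 to 6.762 in WAT and 6.997 in liver. Both were below the other tissues in all 12 BAT arrays. Tnni1, Casq2 and Mybpc1 were likewise below WAT in every BAT array. The difference of Tnni1 turned positive when arrays were centred (0.065) or quantile normalized (0.020). Among all probe sets 36.3% lay wholly above and 63.2% wholly below WAT, so a lack of overlap says little about these genes. Their scores also lie near the array medians, about 6.78 in BAT, 6.92 in WAT and 6.81 in liver.

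**Figure D4:**
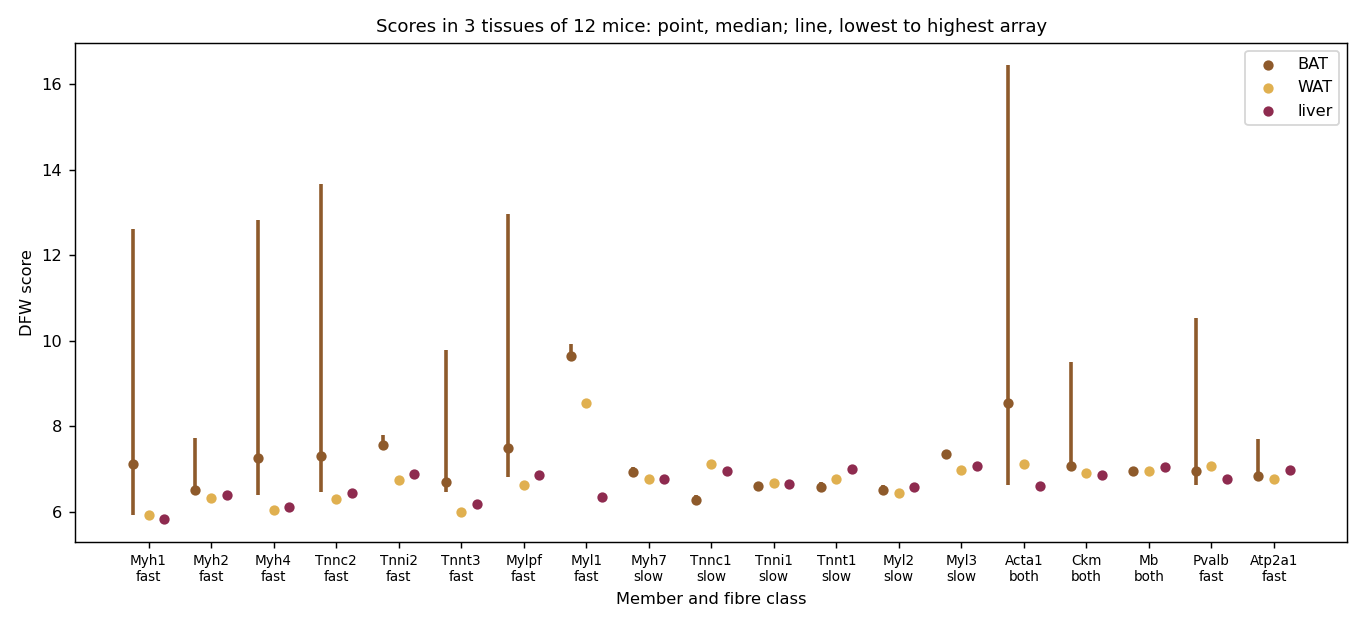
DFW scores of 19 members in BAT, WAT and liver of 12 mice; points are medians and lines run from the lowest to the highest array. The lines of BAT are long in Acta1, Myh4 and Tnnc2 and short in others, such as Tnni2 (7.54 to 7.81) and Myl1 (9.58 to 9.92).

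By limma on differences within mice, 24 of 40 members were called higher and 9 lower in BAT than in WAT, where 36.5% of all probe sets were called higher and 63.3% lower. Against liver 21 were higher and 12 lower, beside 47.4% and 52.5% of all probe sets. WAT was higher than liver in 18 members and lower in 22, beside 55.5% and 44.3%. With nearly every probe set called, a call says little about the members. By direction of the call, 9 of 14 fast genes were higher and 1 lower in BAT than in WAT, as were 12 and 3 of 18 shared genes, while 3 of 8 slow genes were higher and 5 lower. The median difference from WAT was 0.75 in fast, -0.11 in slow and 0.21 in shared genes, beside -0.094 over all probe sets. Acta1 differed from WAT by 2.88 ± 1.05 (SE, limma adjusted p = 0.0203) and from liver by 3.40 ± 1.05 (SE, limma adjusted p = 0.00816). Myh4 differed from WAT by 2.33 ± 0.70 (SE, limma adjusted p = 0.00744), Tnni2 by 0.87 ± 0.03 (SE, limma adjusted p = 5.87e-12) and Tnnc1 by -0.82 ± 0.01 (SE, limma adjusted p = 7.44e-15). The 7 members not called against WAT were Actn3, Casq1, Mybpc2, Myom2, Neb, Pvalb and Ryr1.

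Without overlap between the 12 and 12 arrays, 23 of 40 members were above and 8 below WAT, beside 36.3% and 63.2% of all probe sets, and 19 were above and 9 below liver, beside 47.4% and 52.5%. Counted per animal, the number of members above every WAT and every liver array was 28 of 40 in CAAM mouse 2 and 15 to 17 in the other 4 CAAM mice, against 30, 28 and 25 in water mice 1, 3 and 7 and 18 or 19 in the other 4 water mice. Over all probe sets this share was 21.5% in each of the 12 BAT arrays. Without the 4 high mice, 24 members were called higher and 14 lower than WAT, beside 36.5% and 63.3% of all probe sets, and Pvalb was then lower in BAT (-0.22, limma adjusted p = 0.00143). Array medians were about 6.78 in BAT, 6.92 in WAT and 6.81 in liver, and centring the arrays on them turned the median difference from WAT over all probe sets to 0.041 and the member counts to 29 higher and 6 lower, beside 54.8% and 44.7% of all probe sets. Whether the 3 tissues were scored in 1 run is not stated, and its part in these differences cannot be told apart from tissue.

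CAAM was compared with water in BAT to see whether the amino acid mixture moved the muscle genes. Group means were lower in CAAM mice in 40 of 40 members, where 49.2% of all probe sets were higher. After centring or quantile normalization they were lower in 35 of 40. With the mouse number as a replicate block, 6 of 40 were lower and 34 higher. That block drops water mice 1 and 3, whose numbers no CAAM mouse bears. Both were among the high arrays, with Acta1 at 16.44 and 14.95, so blocking and their loss cannot be told apart. Limma called 0 of 40. By rank products, the test of the study, 34 of 40 members were called lower, where 2.06% of all probe sets were called lower, and 1 of them, Tnnt1, was called higher as well, where 1.19% were. Those called lower were 14 of 14 fast, 6 of 8 slow and 14 of 18 shared genes. Acta1 averaged 8.96 ± 3.89 in CAAM mice and 11.03 ± 3.56 in water mice (SD, n = 5 and 7), a difference of -2.07 ± 2.10 (SE, limma adjusted p = 0.936). Myh1 averaged 7.34 ± 2.64 in CAAM mice and 8.87 ± 2.46 in water mice (SD, n = 5 and 7), a difference of -1.53 ± 1.44 (SE, limma adjusted p = 0.931). The SD within each group exceeded the difference in both genes. Tnnc2 differed by -1.40 ± 1.55 (SE, limma adjusted p = 0.948), Ckm by -0.37 ± 0.56 (SE, limma adjusted p = 0.966) and Myh7 by -0.012 ± 0.026 (SE, limma adjusted p = 0.978). In a two-sided exact permutation test that used all 792 ways to divide the mice, the 19 members named in full had p of 0.139 to 0.848.

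Over all probe sets limma called 0 (0%) and 6.41% had an unadjusted p under 0.05, against 0 of 40 members. The rank product calls depended on how differences were ranked, with 0 members called when they were divided by the SD within groups, a setting that called 0.311% of all probe sets lower and 0.189% higher. Rank products ranks differences in score units, and 16 of the 20 probe sets with the largest SD in those units were members'. The Acta1 difference was -3.79 without CAAM mouse 2 and -1.17 without water mouse 1.

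The water group held 3 of the 4 high arrays and the CAAM group 1. Among the 8 other arrays CAAM means were below water means in 37 of 40 members, beside 49.9% of all probe sets, and rank products called 28 lower and 1 higher, beside 0.819% and 0.888% of all probe sets. Acta1 then averaged 7.24 ± 0.69 in CAAM mice and 8.36 ± 0.62 in water mice (SD, n = 4 each). Myh1 averaged 6.16 ± 0.34 in CAAM mice and 7.02 ± 0.29 in water mice. In 6 members, Actn3, Ckm, Myl1, Myom2, Myot and Tnni2, the 4 CAAM arrays were all below the 4 water arrays, as they were in 1.48% of all probe sets. This selection of arrays was made after their values were seen, and the members are not independent of each other, since they followed the same mice.

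In WAT rank products called 2 members higher, Acta1 and Myom2, and 0 lower, beside 0.822% higher and 1.96% lower of all probe sets. Acta1 in WAT averaged 7.12 ± 0.022 in CAAM mice and 7.11 ± 0.020 in water mice (SD, n = 5 and 7). Myom2 in WAT was 6.29, 6.27, 6.28, 7.07 and 6.37 in CAAM mice 2, 4, 5, 6 and 7, against 6.23 to 6.29 in the 7 water mice; CAAM mouse 6 alone was above 7. In liver rank products called 0 members in either direction, beside 1.61% higher and 1.2% lower, and limma called 0 members in both tissues. Tests of whether the CAAM effect differed between BAT and WAT, or between BAT and liver, called 0 of 40 members and 0% of all probe sets by limma.

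Genes of other cell types, in lists also chosen with earlier results known, were then set beside the members. Of 48 further genes of the muscle fibre, 22 had CAAM mouse 2 and water mice 1, 3 and 7 as the 4 highest BAT arrays. This was so in 0.568% of all probe sets. In the top 5% of SD, which by construction holds 5% of all probe sets, were 33 of the 48. Rank products called 25 lower and 1 higher with CAAM, beside 2.06% and 1.19% of all probe sets. Named after their values were seen, Cox6a2, the muscle subunit of cytochrome oxidase, scored 7.31 in CAAM mouse 2, against 7.49, 7.22 and 6.98 in water mice 1, 3 and 7, and 6.82 to 6.88 in the other 8 mice. Pgam2, the muscle phosphoglycerate mutase, scored 7.47 in CAAM mouse 2, against 7.64, 7.41 and 7.14 in water mice 1, 3 and 7, and 6.99 to 7.03 in the other 8. Ckmt2, the mitochondrial creatine kinase of muscle, was the only one of 7 genes of muscle and brown fat mitochondria with these 4 arrays highest. It scored 6.77 in CAAM mouse 2, against 7.02, 6.64 and 6.28 in water mice 1, 3 and 7, and 6.09 to 6.18 in the other 8.

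The pattern was found in 1 of 12 myogenic and satellite cell genes (Myf6) and 1 of 3 developing muscle myosins (Myh8), and in 0 of 11 heart muscle markers, 0 of 8 neuromuscular junction genes and 0 of 10 smooth muscle markers. It was found in 0 of 13 brown adipocyte markers, 0 of 10 white adipocyte markers, 0 of 7 hepatocyte markers, 0 of 6 nerve and Schwann cell markers and 0 of 3 blood markers. With CAAM, rank products called 3 of 13 brown adipocyte markers higher (Ppargc1a, Elovl3 and Slc27a2) and 3 lower (Dio2, Otop1 and again Elovl3), named after their values were seen, beside 1.19% and 2.06% of all probe sets. It called 2 of 12 myogenic genes lower, Myf6 and Des, of which Des is also counted among the muscle fibre genes, and 0 higher. Of the genes of muscle and brown fat mitochondria it called 2 of 7 lower, Ckmt2 and Fabp3, and 1 higher, Ppargc1a. In the smooth muscle, white adipocyte, hepatocyte and nerve lists it called 0 or 1 gene in each direction (Acta2, Lep and S100b lower, Retn, Cyp2e1 and Pmp22 higher), and 0 in the heart, developing myosin, neuromuscular junction and blood lists. The satellite cell factor Pax7 stood at 6.37 in all BAT arrays, Myod1 at 6.49, Myog at 6.36 and the embryonic myosin Myh3 at 6.26. Averaged over the list, brown adipocyte markers scored 10.45 to 10.46 in the 4 high arrays and in the other 8, and smooth muscle markers scored 7.40 in all 12. The 40 members averaged 7.42 to 8.35 in the 4 high arrays and 6.66 to 6.89 in the other 8. Ucp1 was 14.17 in all 12. Because DFW weights compress genes of small spread, a flat score is not evidence of an equal amount. The part of tissue sampling in these values was not tested.

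**Figure D5:**
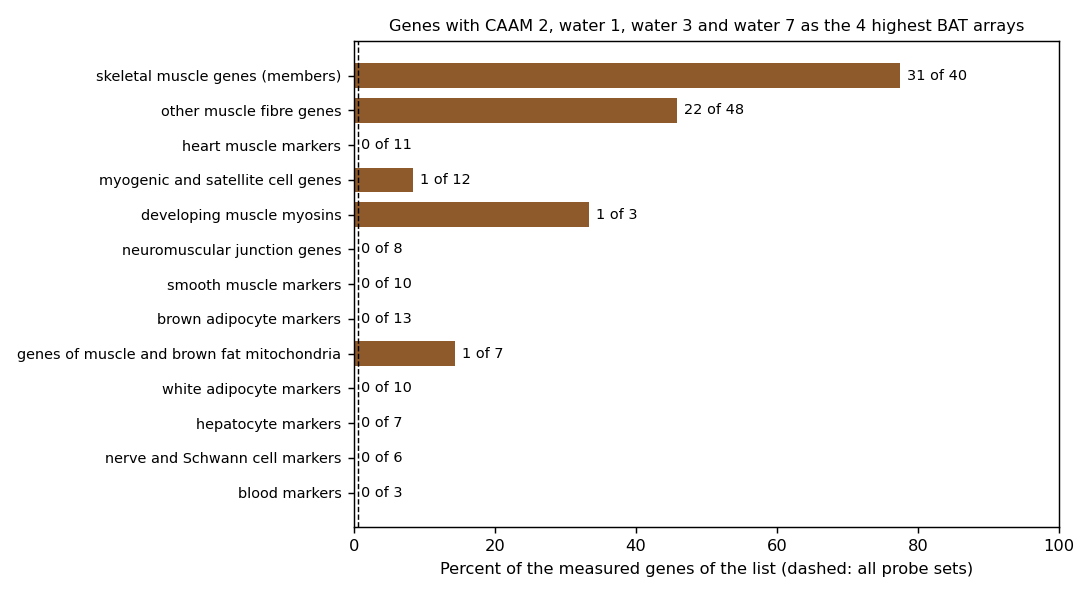
Percent of the measured genes of each list (bars, with counts) in which CAAM mouse 2 and water mice 1, 3 and 7 had the 4 highest BAT scores; the dashed line is the share of all probe sets, 0.568%. The members (31 of 40) and other muscle fibre genes (22 of 48) lead.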

How the data were processed

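Total RNA of BAT, WAT and liver from 12 mice was hybridized to 36 Affymetrix arrays. The deposited values are DFW scores that the authors computed with Bioconductor packages (the submission notes name R 2.7.2); which arrays shared a run is not given in the sources used here. Depth does not apply to arrays, and the number of arrays limits the precision. Of 45101 probe sets, 64 controls were left out and 45037 were tested; 34945 had 1 gene symbol in the platform annotation, 932 several and 9160 none. CAAM and water were compared by rank products, as in the study, over 35 pairs of arrays with 100 permutations (20 for alternatives), called separately for higher and lower where the estimated false positive share was under 0.05. Differences with SE and Benjamini-Hochberg adjusted p came from limma 3.58.1 in R 4.3.3 (lmFit, eBayes). Tissues were compared by limma on differences within mice, with CAAM and water weighted equally. Python 3.11.15 with numpy 2.4.6, pandas 2.3.3, scipy 1.17.1 and matplotlib 3.10.9 did the rest. Both tests were tried on simulated data.

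The members and the other gene lists were chosen with earlier results of these data known. Values in every array were printed for 19 members (myosins, troponins, Acta1, Ckm, Mb, Pvalb and Atp2a1; Mb as 1 value where all arrays round to it), and at least ranges for the others. Samples were grouped by the deposited labels. The alternatives were a linear scale, quantile normalization, removal of dim probe sets, centring of each array on its median, a trended robust prior, the mean of all probe sets of a gene, a replicate block, 1 treatment only, leaving out each mouse and exact permutation. Leaving out the 4 mice with high Acta1 was chosen after seeing the data.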

Additional observations from a re-analysis of the deposited data

Results flagged for a closer look

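Within the 5 CAAM mice, the BAT array of mouse 2 lay apart from the other 4 in 16 of 19 members. The measure is the gap to the nearest other array as a share of the group's range, with a critical value of 0.71 for 5 arrays, and chance alone marks about 1 in 20 groups; 38 groups were examined, 17 were marked, and the genes are not independent. Among the heavy chains the share was 0.878 in Myh1, 0.947 in Myh2, 0.883 in Myh4 and 0.908 in Myh7. In the troponins it was 0.890 in Tnnc1, 0.913 in Tnnc2, 0.856 in Tnni1, 0.896 in Tnni2 and 0.932 in Tnnt3. In the light chains it was 0.880 in Mylpf, 0.825 in Myl1 and 0.969 in Myl2. It was 0.827 in Acta1, 0.968 in Ckm, 0.907 in Pvalb and 0.937 in Atp2a1.

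Among the 7 water mice, Mb was marked for water mouse 3, with a share of 0.568, at the critical value of 0.568 for 7 arrays. That probe set stood at 6.96 in all 12 arrays. In the other 18 members examined the water group was not marked. The gap is to the nearest other array, so it is kept small where several arrays of a group are high together. Water mice 1, 3 and 7 were so in Acta1, at 16.44, 14.95 and 12.39. The lack of a mark therefore does not show that the water group was even.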

How the results depend on the processing

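Of the single gene values under the alternatives, 1143 kept their direction and side of the threshold, 62 lost the call and 37 turned direction; of the counts, 281 stayed within 1.5 times and 30 did not. The cause was not tested.

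With dim probe sets left out, which tests fewer members, 4 members were lower in BAT than in WAT and 5 lower in BAT than in liver. In WAT 10 were higher and 9 lower than in liver. For CAAM in BAT, rank products then tested 22 members and called 0 higher and 17 lower, beside 1.36% and 2.13% of the probe sets tested. In WAT 1 was called higher. In CAAM mice only, 11 members were higher in BAT than in WAT and 9 than in liver, and the shares over all probe sets are not given here. On a linear scale 12 were higher in BAT than in liver, beside 47.4% of all probe sets. Rank products called 0 higher in BAT and 1 in WAT on that scale. Without the 4 high mice 14 were lower in BAT than in WAT, beside 63.3% of all probe sets. With differences divided by the SD, rank products called 0 higher and 0 lower in BAT, beside 0.189% and 0.311% of all probe sets. It called 0 higher in WAT and 2 lower in liver. Limma in place of rank products called 0 higher and 0 lower in BAT and 0 higher in WAT.

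Tnni1 turned positive in BAT against WAT under quantile normalization (0.0199) and centring (0.0651), Pvalb negative without the 4 mice (-0.222). Against liver Mb turned positive by the mean of its probe sets (0.304), and Atp2a1 negative in CAAM mice only (-0.0599) and without the 4 mice (-0.173). The CAAM difference turned positive in Myl3 (0.000620 quantile, 0.000337 centred) and Mb (0.000409 quantile, 0.000369 centred).

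Same-numbered CAAM and water mice did not deviate together (correlations of -0.0902 to 0.0584 in BAT, -0.196 to -0.00494 in WAT, -0.156 to 0.155 in liver), so the numbers do not pair the samples. With the number as a replicate block, rank products called 11 higher and 29 lower in BAT, beside 1.38% and 1.28% of all probe sets. Of these, 9 were called in both directions. In WAT 1 was called higher and 1 lower, with the shares over all probe sets not given here. This block leaves out water mice 1 and 3, whose BAT arrays were among the high ones. The CAAM difference in BAT was then 0.157 in Myh2, 0.0372 in Myh4, 0.0151 in Myh7, 0.0174 in Tnnc1, 0.0729 in Tnnc2, 0.00343 in Tnni1, 0.00881 in Tnni2, 0.0236 in Tnnt1, 0.182 in Tnnt3, 0.125 in Mylpf, 0.0103 in Myl1, 0.0197 in Myl2, 7.14e-06 in Myl3, 0.190 in Ckm, 0.151 in Pvalb and 0.0478 in Atp2a1, and limma called 0.

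Leaving out 1 mouse at a time gave 20 to 24 members higher and 8 to 10 lower in BAT than in WAT, 16 to 22 higher and 12 to 13 lower than in liver, 0 to 1 higher and 32 to 35 lower with CAAM in BAT, and 1 to 2 higher in WAT. Shares over all probe sets are not given for these counts. Atp2a1 ranged from -0.0552 to 0.0326 against liver. The CAAM difference ranged from -0.311 to 0.0654 in Myh2, -0.0303 to 0.00361 in Myh7, -0.0285 to 0.00620 in Tnnc1, -0.00624 to 0.00110 in Tnni1, -0.0261 to 0.00988 in Tnnt1 and -0.0338 to 0.00553 in Myl2.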
